A study of Mus musculus with 26 samples.

Results

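A set of 10 genes of the smooth muscle type contractile apparatus were followed in stromal cells of the mouse heart before and after infarction. They were chosen by symbol as Acta2, Tagln, Cnn1, Cnn2, Myh11, Myl9, Actn1, Palld, Csrp2 and Cald1, and all 10 were found among the 24421 genes of the count tables of all 26 libraries. All 10 passed the low-count filter. Acta2 and Tagln had been picked as members with a transient response, and Palld and Actn1 as members with a lasting one. These picks were made with earlier results of these data known, so the courses here are no independent test of them.

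Every mouse was of the genotype PDGFRa H2BEGFP+ on C57BL/6, the strain being given as B6.129S4-Pdgfratm11(EGFP)Sor/J, in which the Pdgfra locus drives a nuclear green fluorescent protein (GFP). The ages of the mice are not given in the sources used here. Sorted cells were GFP+, CD45- and CD31-, a gate set against leukocytes and endothelium, and were divided by the surface protein Sca-1, the product of Ly6a. Undamaged hearts gave 5 Sca-1 positive and 4 Sca-1 negative bulk RNA-seq libraries. Hearts taken at day 7 after ligation of the left anterior descending (LAD) coronary artery gave 1 positive, 1 negative and 4 further libraries, 1A, 1B, 4A and 4B, for which the labels state no gate. Day 14 gave 2 positive and 2 negative libraries, and day 28 gave 4 positive and 3 negative ones. No sham-operated group is among the samples used here, so time after injury and the operation itself cannot be told apart. The GFP marks cells by Pdgfra activity in any lineage and does not single out myofibroblasts.

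In smooth muscle, force comes from myosin pulling on actin filaments, and the filaments are anchored to the membrane and to each other. After injury, fibroblasts can become myofibroblasts, which build stress fibres that hold the smooth muscle actin encoded by Acta2 and pull on the scar. Many genes of this apparatus are read by serum response factor (SRF), which binds a sequence called the CArG box, together with partners of the myocardin family. TEAD factors bind another element, the MCAT box, near some of the same genes. TGF-beta signalling is a well known inducer of Acta2 in fibroblasts.

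Promoter windows of the members are shown first because SRF and TEAD motifs are the classical common feature of these genes. RefSeq windows of 250 bases before to 50 after a start site (GRCm38.p6) were found for 7 of the 10 members. The CArG box was searched with all 6 core bases A or T, and with at least 5 of 6, a class that includes the first. The MCAT box was searched as CATTCC on either strand. Capitals mark matches, and each window is written 5′ to 3′ on the gene's own strand.

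Acta2, chr19:34255324-34255623, minus strand: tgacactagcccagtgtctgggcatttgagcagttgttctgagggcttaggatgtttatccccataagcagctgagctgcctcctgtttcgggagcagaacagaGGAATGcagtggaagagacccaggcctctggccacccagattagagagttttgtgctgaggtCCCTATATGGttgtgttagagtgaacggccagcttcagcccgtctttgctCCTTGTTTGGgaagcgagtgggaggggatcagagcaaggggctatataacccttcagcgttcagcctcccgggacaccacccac

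Cnn2, chr10:79988350-79988649, plus strand: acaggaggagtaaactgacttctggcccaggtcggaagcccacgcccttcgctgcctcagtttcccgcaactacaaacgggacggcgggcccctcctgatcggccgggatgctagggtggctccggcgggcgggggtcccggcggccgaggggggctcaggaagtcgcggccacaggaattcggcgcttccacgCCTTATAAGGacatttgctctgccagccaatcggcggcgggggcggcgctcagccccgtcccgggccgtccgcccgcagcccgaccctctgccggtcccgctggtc

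Myl9, chr2:156775214-156775513, plus strand: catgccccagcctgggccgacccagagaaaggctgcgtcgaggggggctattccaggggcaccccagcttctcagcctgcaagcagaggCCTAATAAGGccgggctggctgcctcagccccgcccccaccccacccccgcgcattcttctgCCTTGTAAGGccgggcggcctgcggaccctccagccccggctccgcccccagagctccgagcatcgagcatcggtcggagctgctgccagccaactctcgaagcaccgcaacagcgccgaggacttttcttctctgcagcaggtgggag

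Actn1, chr12:80260314-80260613, minus strand: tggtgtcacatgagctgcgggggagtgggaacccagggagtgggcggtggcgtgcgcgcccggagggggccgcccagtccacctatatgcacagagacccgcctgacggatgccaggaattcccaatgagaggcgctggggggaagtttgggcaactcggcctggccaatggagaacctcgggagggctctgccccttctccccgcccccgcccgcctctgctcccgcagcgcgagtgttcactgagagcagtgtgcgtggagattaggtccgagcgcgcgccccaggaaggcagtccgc

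The window of Acta2 held CCCTATATGG beginning 84 bases and CCTTGTTTGG beginning 34 bases before the start, each with 5 of 6 core bases A or T, and GGAATG, the reverse complement of the MCAT box, 146 bases before it. Cnn2 held CCTTATAAGG 56 bases before the start, with all 6 core bases A or T. Myl9 held CCTAATAAGG 161 bases before the start, again complete, and CCTTGTAAGG with 5 of 6 at 99 bases. Neither motif was in the window of Actn1 or Cnn1. None of the 3 Palld windows and none of the 2 Cald1 windows held a CArG box, but a MCAT box stood 87 bases before 1 Palld start and 153 bases before 1 Cald1 start. Over 32851 promoter windows of this length, 1.63% held a complete CArG box, 9.98% held at least the 5 of 6 form and 14.7% held a MCAT box. These are matches of letters in a window. They say nothing about binding, and a window without them says nothing about sites elsewhere in the gene.

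The libraries held 6.79 to 48.8 M (mega) counts in genes each, so that 3 counts amount to 0.0614 to 0.442 CPM, the unit of counts scaled to a common library total. Pdgfra, the gene that drives the sorted GFP, averaged 433 to 607 CPM (n = 4 to 9) at the 4 times. Levels below are CPM after scaling by the trimmed mean of M values (TMM), and differences are log2 differences of edgeR quasi-likelihood fits ± SE, with p adjusted by Benjamini-Hochberg over all genes tested. A gene is called higher or lower where that adjusted p is under 0.05. In such sorted populations, more cells expressing a gene and more RNA per cell cannot be told apart. The labels do not say which libraries come from separate animals, so p measures the spread between these libraries.

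At day 7, 6 of the 10 members were higher than in undamaged hearts and 0 were lower, where 22.8% of the 13392 genes tested were called in either direction and 11.5% were higher. The median difference of the members was 1.55 log2, beside -0.04 for all genes tested. In 5 members (Acta2, Tagln, Actn1, Palld and Csrp2) each of the 6 day 7 libraries lay above each of the 9 undamaged ones, which held for 4.47% of all genes. At day 14, 5 members were called higher and 0 lower (8.98% of genes called, 5.84% higher). At day 28, 3 members (Actn1, Palld and Csrp2) were higher and Cnn1 was lower (5.39% of genes called, 3.45% higher and 1.94% lower).

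**Figure D1:**
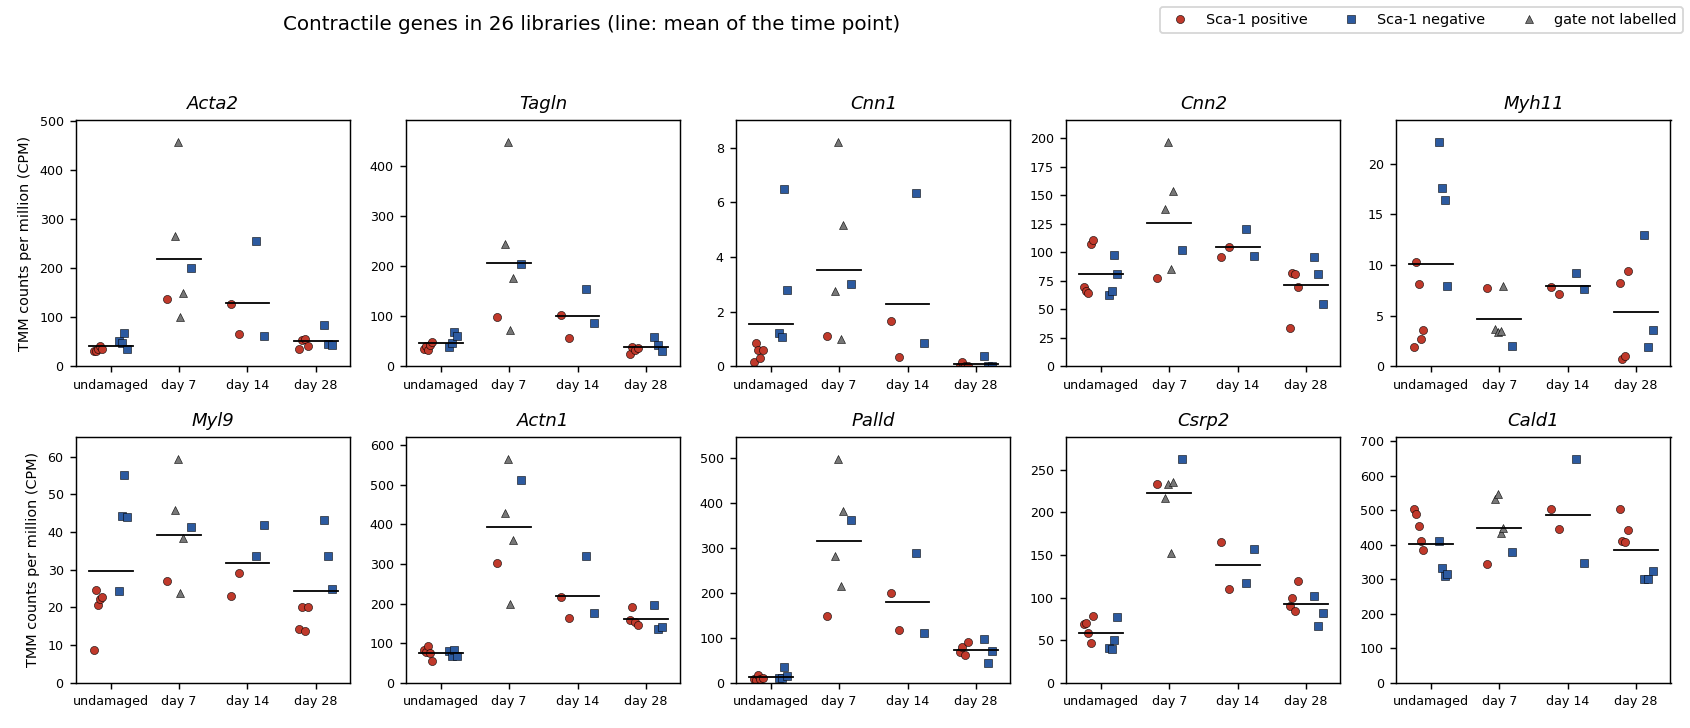
TMM-scaled CPM of each member (vertical axis, linear, from 0) in the 26 libraries at 4 times; circles are Sca-1 positive, squares Sca-1 negative, triangles day 7 libraries with no labelled gate, and lines are means of a time. The day 28 libraries of Acta2 (34.6 to 84.3 CPM) and Tagln (24.7 to 58.9 CPM) overlap the undamaged ones, whereas each day 28 library of Palld and Actn1 lies above them.

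Among the thin filament genes, Acta2, smooth muscle alpha-actin (ENSMUSG00000035783.9, GRCm38 chromosome 19, 34241090 to 34255590, minus strand), ranged from 30.3 to 68.0 CPM in undamaged hearts with a median of 35.5. At day 7 it ranged from 101 to 456 CPM (median 175), with the highest value in library 1B and the lowest in 4A. At day 14 the negative and positive libraries of replicate D1 held 256 and 127 CPM, and those of replicate D9 held 62.3 and 66.7 CPM. The D1 libraries were thus well above all undamaged ones, whereas both D9 libraries lay within the undamaged range. Xist, the RNA of the inactive X chromosome, divided the libraries in the same way, at 0.665 and 0.348 CPM in the negative and positive D1 libraries and 814 and 294 CPM in those of D9. At day 7 it was at 3.14 CPM in 1A and 0 in 1B, which held the highest Acta2 values (266 and 456 CPM), and at 53.2 to 333 CPM in the 4 others, which held 101 to 201 CPM of Acta2. Xist was at most 10.4 CPM in each undamaged and day 28 library. At day 28 Acta2 ranged from 34.6 to 84.3 CPM (median 44.5), with all but the negative library E4, at 84.3, inside its undamaged range. Acta2 was higher by 2.39 ± 0.30 log2 at day 7 (5.24-fold, adjusted p = 1.63e-06) and by 1.62 ± 0.32 at day 14 (adjusted p = 0.00137), and the day 28 difference of 0.29 ± 0.29 did not pass (adjusted p = 0.639). The day 14 call was lost without the negative D1 library (1.03, adjusted p = 0.0583). Without the 6 libraries with Xist above 20 CPM, the differences of Acta2 were 3.11 at day 7 (adjusted p = 6.44e-08) and 2.20 at day 14 (adjusted p = 2.04e-05), and those of Tagln 2.91 (adjusted p = 4.98e-08) and 1.49 (adjusted p = 0.000979). Those fits kept only 1A and 1B at day 7 and, at day 14, only the negative and positive D1 libraries, which share a replicate code. The part of Xist status in the spread within days 7 and 14 was not tested.

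Tagln, transgelin or SM22, an actin-binding protein of smooth muscle (ENSMUSG00000032085.5, chromosome 9, 45929619 to 45936058, minus strand), followed the same course. It ranged from 31.9 to 68.1 CPM (median 43.1) in undamaged hearts and from 73.3 to 447 CPM (median 190.4) at day 7, again with 1B highest and 4A lowest. The day 14 values were 154 and 103 CPM in the negative and positive D1 libraries and 85.6 and 56.9 CPM in those of D9, and day 28 ranged from 24.7 to 58.9 CPM (median 36.2). Tagln was higher by 2.18 ± 0.28 at day 7 (4.52-fold, adjusted p = 2.27e-06) and by 1.12 ± 0.31 at day 14 (adjusted p = 0.0190), and differed by -0.28 ± 0.27 at day 28 (adjusted p = 0.633). The day 14 call was lost without the negative D1 library (0.84, adjusted p = 0.171), without the positive one (1.11, adjusted p = 0.0510) and within the libraries whose titles put a number before the replicate code, here called prefixed (0.85, adjusted p = 0.189). The Tagln locus overlaps Pcsk7 and the antisense gene Gm48529, and whether the counting used strand is not given in the sources used here.

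The calponins, which bind actin and restrain myosin, divided. Cnn1, the smooth muscle calponin (ENSMUSG00000001349.5, chromosome 9, 22099216 to 22109630, plus strand), was near the limit of detection, with 0.162 to 6.48 CPM (median 0.865) in undamaged hearts and 1.01 to 8.20 CPM (median 2.88) at day 7. At day 14 it held 6.34 and 1.64 CPM in the negative and positive D1 libraries and 0.863 and 0.346 CPM in those of D9. At day 28 there were 0 counts in 5 of the 7 libraries, 4 counts in the negative library E4 and 2 in the positive library F2, or 6 counts in all against 214 in the 9 undamaged libraries. Mean levels were 0.0720 ± 0.138 CPM (SD, n = 7) at day 28 and 1.57 ± 1.998 CPM (SD, n = 9) in undamaged hearts, although the lowest undamaged library held less than E4. The fitted day 28 difference of -4.31 ± 0.98 (adjusted p = 0.00701) depends on the prior count of the fit and is no measured fold. Its call was lost by limma-voom (-3.59, adjusted p = 0.104), with the replicate code as a block in limma-voom (-3.42, adjusted p = 0.201) and within the libraries with no number before the code, here called letter-coded (-2.04, adjusted p = 0.146). The day 7 difference of 1.19 ± 0.72 was not called (adjusted p = 0.251) but was without the undamaged negative library A6, which held the 6.48 CPM (1.89, adjusted p = 0.0434).

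Cnn2, the calponin that cells outside muscle also make (ENSMUSG00000004665.10, chromosome 10, 79988584 to 79996062, plus strand), moved little. It ranged from 62.8 to 111 CPM (median 69.9) in undamaged hearts, 77.8 to 196 (median 120.3) at day 7 and 33.8 to 95.9 (median 80.7) at day 28. The 33.8 CPM were in the positive library E2, which had 6.79 M counts in genes and 55.8% of reads outside them. The next lowest was 54.6 CPM, in the negative library B6. E2 also held the lowest day 28 values of Acta2 and Tagln. The day 14 libraries held 120.2 and 96.0 CPM (D1) and 96.6 and 105 CPM (D9) in the negative and positive gates. The ranges overlapped at every time, and the day 7 difference was 0.64 ± 0.20 (1.56-fold, adjusted p = 0.0214). That call was lost without library 1B (0.46, adjusted p = 0.107), without 4B (0.57, adjusted p = 0.0606), within the prefixed libraries (0.52, adjusted p = 0.0765) and with the 22 libraries of labelled gate and gate as a term (0.15, adjusted p = 0.814).

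Cald1, caldesmon, which binds actin, myosin and calmodulin (ENSMUSG00000029761.16, chromosome 6, 34598500 to 34775473, plus strand), was called in none of the comparisons of times or gates. It ranged from 310 to 502 CPM (median 409.6) in undamaged hearts, 344 to 547 (median 441) at day 7 and 300 to 502 (median 407) at day 28. The day 7 difference was 0.16 ± 0.15 (adjusted p = 0.499), and the ranges overlapped.

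The motor genes did not follow Acta2 either. Myh11, the smooth muscle myosin heavy chain and the member most specific to mature smooth muscle (ENSMUSG00000018830.10, chromosome 16, 14194535 to 14291372, minus strand), was low and scattered. It ranged from 1.89 to 22.1 CPM (median 8.18) in undamaged hearts, 1.96 to 7.91 (median 3.59) at day 7 and 0.716 to 12.98 (median 3.62) at day 28. Its differences were -1.10 ± 0.55 at day 7 (adjusted p = 0.155), -0.34 ± 0.61 at day 14 (adjusted p = 0.818) and -0.92 ± 0.52 at day 28 (adjusted p = 0.345). None of these was called, and any part of smooth muscle cells in the Acta2 differences was not tested.

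Myl9, the regulatory light chain of smooth muscle and non-muscle myosin (ENSMUSG00000067818.6, chromosome 2, 156775420 to 156781658, plus strand), ranged from 8.64 to 55.1 CPM (median 24.4) in undamaged hearts, 23.9 to 59.4 (median 39.9) at day 7 and 13.9 to 43.3 (median 20.2) at day 28. Its day 7 difference was 0.41 ± 0.30 (adjusted p = 0.341), and the ranges overlapped at each time. Day 7 differences were 0.64 for Cnn2 and 0.41 for Myl9, whose windows above hold complete CArG boxes. Acta2, whose window holds the incomplete form and a MCAT box, had 2.39. Of the members with neither motif, Actn1 had 2.37 and Cnn1 had 1.19. Palld and Cald1, with a MCAT box in 1 window each, had 4.52 and 0.16. The differences between genes, and any part of the motifs in them, were not tested.

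The anchoring and crosslinking genes kept part of their increase. Palld, palladin, a scaffold of stress fibres and dense bodies (ENSMUSG00000058056.16, chromosome 8, 61511433 to 61902690, minus strand), had the largest difference of the members at days 7 and 14. It ranged from 7.19 to 34.9 CPM (median 10.3) in undamaged hearts, where the negative library A6 held 34.9 and no other exceeded 17.1. At day 7 it ranged from 150 to 498 CPM (median 323). The day 14 libraries held 288 and 201 CPM (D1) and 112 and 118 CPM (D9) in the negative and positive gates, and day 28 ranged from 45.3 to 97.6 CPM (median 71.3). At each time after ligation all libraries were above all undamaged ones. Palld was higher by 4.52 ± 0.32 at day 7 (23.0-fold, adjusted p = 5.5e-11), by 3.71 ± 0.33 at day 14 (adjusted p = 9.95e-09) and by 2.42 ± 0.29 at day 28 (5.36-fold, adjusted p = 8.09e-06).

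Actn1, alpha-actinin 1, which crosslinks actin filaments and ties them to adhesions (ENSMUSG00000015143.15, chromosome 12, 80167547 to 80260371, minus strand), had a narrow undamaged range of 55.8 to 92.1 CPM (median 77.5). It ranged from 200 to 565 CPM (median 394) at day 7 and from 136 to 197 CPM (median 153) at day 28, and the day 14 libraries held 320 and 216 CPM (D1) and 175 and 164 CPM (D9) in the negative and positive gates. Its libraries after ligation did not overlap the undamaged ones at any of the 3 times. Actn1 was higher by 2.37 ± 0.18 (5.15-fold, adjusted p = 1.45e-10), 1.52 ± 0.19 (adjusted p = 4.06e-06) and 1.07 ± 0.17 (2.1-fold, adjusted p = 0.000181) at days 7, 14 and 28. Palld and Actn1 were the 2 members without overlap at day 28, where 0.933% of all genes had each day 28 library above each undamaged one. These 2 had been picked as lasting members, so that share is no test of them.

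Csrp2, a LIM protein of smooth muscle that can bridge SRF and its partners (ENSMUSG00000020186.7, chromosome 10, 110919789 to 110939622, plus strand), lay between these patterns. It ranged from 39.4 to 78.7 CPM (median 58.3) in undamaged hearts, 153 to 262 (median 233) at day 7 and 66.9 to 119 (median 89.6) at day 28. The day 14 libraries held 118 and 165 CPM (D1) and 157 and 111 CPM (D9) in the negative and positive gates, all above the undamaged ones. Csrp2, Palld and Actn1 were the 3 members without overlap at day 14, where 4.35% of all genes had each day 14 library above each undamaged one. The day 28 libraries overlapped the undamaged range at their lower end. The differences were 1.91 ± 0.16 (adjusted p = 1.42e-09), 1.22 ± 0.18 (adjusted p = 2.73e-05) and 0.64 ± 0.15 (1.56-fold, adjusted p = 0.0117), and the last was lost within the prefixed libraries (0.45, adjusted p = 0.201).

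**Figure D2:**
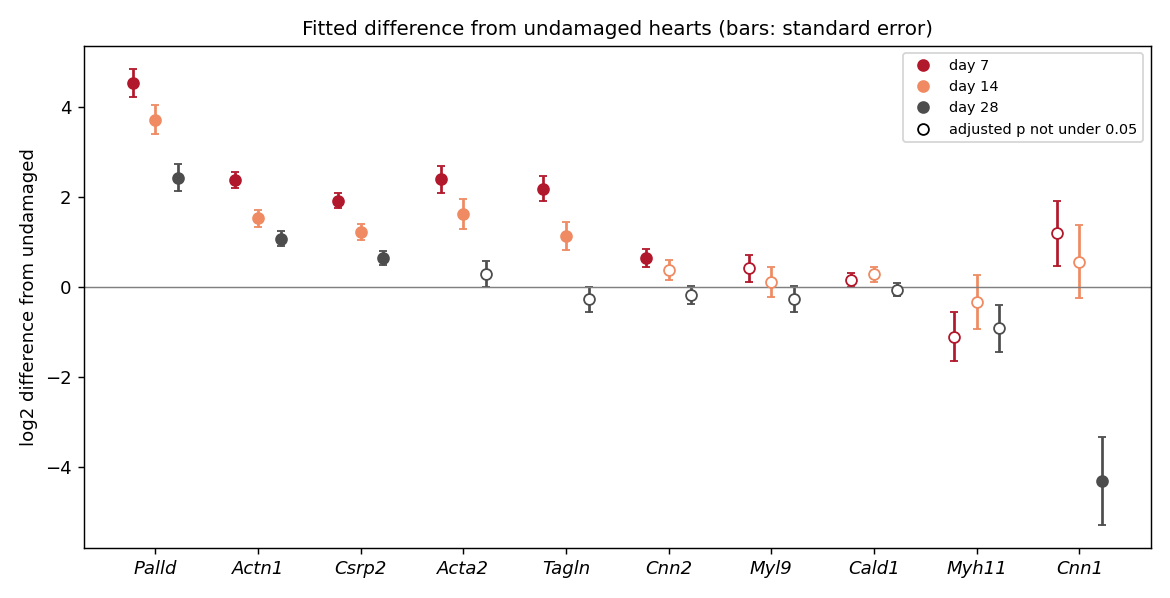
Fitted log2 difference from undamaged hearts (vertical axis) for each member at days 7, 14 and 28 (colours); bars are standard errors and filled circles have an adjusted p under 0.05. Palld, Actn1 and Csrp2 stay above 0 with filled circles at each time, Acta2 and Tagln at days 7 and 14, and the filled day 28 circle of Cnn1 rests on 6 counts.

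From day 7 to day 28, 7 of the 10 members fell (11.6% of genes called, 5.5% lower), and both the transient and the lasting members were among them. Acta2 fell by 2.10 log2 (adjusted p = 0.000114), Tagln by 2.46 (adjusted p = 9.08e-06), Palld by 2.10 (adjusted p = 9.94e-05), Actn1 by 1.30 (adjusted p = 5.18e-05) and Csrp2 by 1.27 (adjusted p = 2.17e-05). Cnn2 fell by 0.82 (adjusted p = 0.0125), a call lost without library 1B (-0.65, adjusted p = 0.0550) and with gate as a term in 22 libraries (-0.33, adjusted p = 0.612), and the near absence of Cnn1 at day 28 made the last of the 7. In 6 members (Acta2, Tagln, Cnn1, Actn1, Palld and Csrp2) each day 28 library lay below each day 7 library, which held for 2.71% of all genes. Between days 7 and 14, 0 of the 10 members were called by edgeR and 2 of all genes (0.0149%), with 5 members and 1217 genes at an unadjusted p under 0.05. Actn1 was called in this comparison by DESeq2 (-0.85, adjusted p = 0.0252), and by edgeR without the day 7 library 4A (-0.99, adjusted p = 0.0264) or the negative D1 library of day 14 (-1.09, adjusted p = 0.0489).

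Palld and Acta2 thus had the same fitted fall after day 7, and they differed in the size of the rise before it. As log2 ratios of CPM within a library, Acta2 stood 1.73 ± 0.56 (SD, n = 9) above Palld in undamaged hearts, with every library between 0.96 and 2.34. The ratio was -0.61 ± 0.56 (n = 6) at day 7, -0.62 ± 0.31 (n = 4) at day 14 and -0.54 ± 0.43 (n = 7) at day 28, with every library at or under -0.02. The 3 times after ligation overlapped one another and none overlapped the undamaged libraries. Tagln against Actn1 gave another picture, with -0.76 ± 0.48 in undamaged hearts, -1.09 ± 0.47 at day 7, -1.17 ± 0.24 at day 14 and -2.12 ± 0.35 at day 28. There the undamaged, day 7 and day 14 libraries overlapped, and the day 28 libraries (-2.69 to -1.68) lay below all of them. These ratios were not tested, since the pairs had been picked for their courses.

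**Figure D3:**
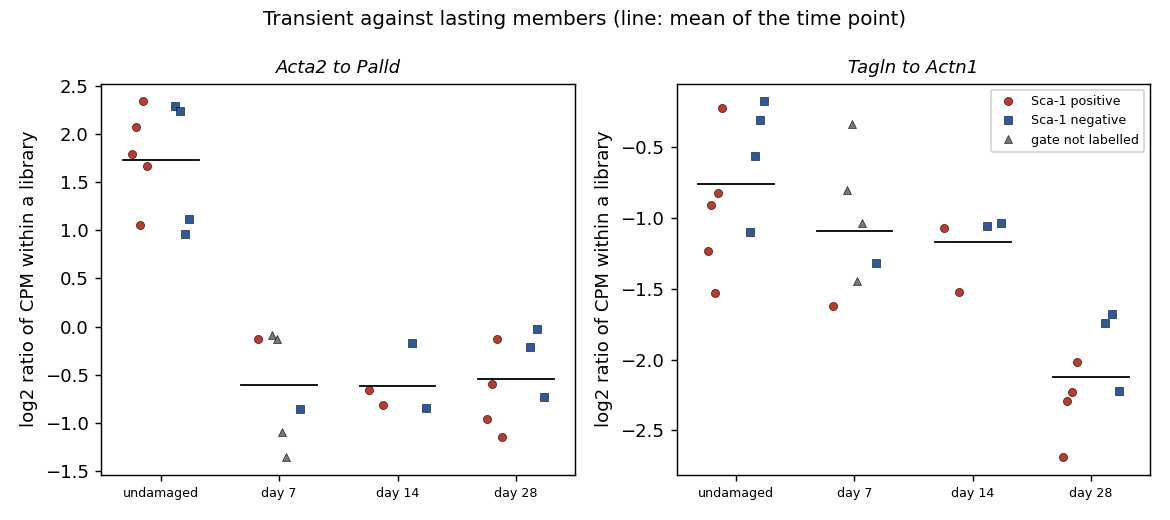
Log2 ratio of CPM within a library (vertical axis) of Acta2 to Palld (left) and Tagln to Actn1 (right) at each time; points are libraries by gate and lines are means. The Acta2 to Palld ratio moves once, between undamaged hearts and day 7, from a mean of 1.73 to -0.61, and the Tagln to Actn1 ratio drops at day 28 to -2.12.

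The share of the day 7 log2 difference that was left at day 28 was 53.6% ± 8.22 for Palld, 45.2% ± 9.13 for Actn1 and 33.5% ± 13.8 for Csrp2 (SD over the 7 day 28 libraries). It was 12.2% ± 18.4 for Acta2, -12.9% ± 20.1 for Tagln and -28.5% ± 85.5 for Cnn2, whose SDs all reach past 0. The Cnn2 share was -1.24, as a fraction, with gate as a term in 22 libraries. The shares of Palld and Actn1 did not differ beyond their spread. Of the mean rise in CPM from undamaged hearts to day 7, 26.4% was left at day 28 for Actn1, 20.3% for Csrp2, 19.9% for Palld and 5.24% for Acta2. For Palld the mean went from 13.8 ± 8.58 CPM (SD, n = 9) to 315 ± 126 (n = 6) and to 73.7 ± 18.01 (n = 7), and for Acta2 from 41.8 ± 12.1 to 218 ± 129.9 and to 51.0 ± 16.4 CPM.

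Relative levels between members were compared as CPM per kilobase of the union of annotated exons. In undamaged hearts Cald1 (33.3 ± 5.99, SD, n = 9), Cnn2 (32.8 ± 7.94), Csrp2 (27.1 ± 7.10), Myl9 (25.5 ± 12.7), Tagln (23.1 ± 5.94), Acta2 (19.0 ± 5.51) and Actn1 (13.8 ± 1.95) formed a series in which each overlapped its neighbours. Palld (1.34 ± 0.833), Myh11 (1.33 ± 0.947) and Cnn1 (0.572 ± 0.730) were far below. At day 7 Tagln (104 ± 67.4, n = 6), Csrp2 (102 ± 17.1) and Acta2 (99.5 ± 59.1) led without differing beyond their spread, followed by Actn1 at 71.2 ± 24.4. Palld had reached 30.6 ± 12.2 per kilobase, near Cald1 and Myl9. At day 28 Csrp2 led (42.4 ± 7.73, n = 7), and Tagln (19.0 ± 5.53) had dropped below Actn1 (29.0 ± 4.37). A single exon length was used for all transcripts of a gene, which bears on genes with several starts such as Palld and Cald1.

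Between the Sca-1 gates, in fits that did not pair libraries by replicate code, 1 member was called in undamaged hearts and 0 at days 14 and 28. Ly6a, the gene of the sorted marker, followed the labelled gates, with at least 280 CPM in each positive and at most 91.9 CPM in each negative undamaged library. In undamaged hearts 1 of the 10 members, Myl9, was lower in the Sca-1 positive gate (3.1% of 13812 genes called, 1.45% lower). Its positive libraries E1, E3, F3, A6 and B7 held 8.64, 24.5, 20.6, 22.1 and 22.7 CPM, and its negative libraries E5, F3, A6 and B7 held 24.4, 44.1, 55.1 and 44.1 CPM. The ranges overlapped slightly, at E3 of the positive and E5 of the negative gate, and the difference was -1.09 ± 0.26 (adjusted p = 0.0254). That call was lost without F3 of the positive gate (-1.11, adjusted p = 0.0544) or, in the negative gate, without F3 (-1.07, 0.0594), A6 (-0.93, 0.101) or B7 (-1.07, 0.0545, each an adjusted p). Within the prefixed libraries it was also lost (-1.15, adjusted p = 0.0564), as within the letter-coded ones (-0.93, adjusted p = 0.248).

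Beside Myl9, 3 members had an unadjusted p under 0.05 in undamaged hearts, as had 2231 of the 13812 genes tested. Cnn1 differed by -2.50 ± 0.91 (adjusted p = 0.162), with 0.162 to 0.865 CPM in the positive and 1.07 to 6.48 CPM in the negative libraries. Myh11 differed by -1.59 ± 0.65 (adjusted p = 0.222), with 1.89 to 10.3 CPM in the positive and 7.91 to 22.1 CPM in the negative libraries. Cald1 differed in the other direction, by 0.38 ± 0.17 (adjusted p = 0.256), and Acta2 by -0.53 ± 0.32 (adjusted p = 0.449). At day 14, 0 of 10 members were called (0.0507% of genes), and 0 had an unadjusted p under 0.05 (257 genes had). At day 28 it was 0 of 10 again (0.594% of genes), with 2 members (Myl9 and Cald1) and 2027 genes at an unadjusted p under 0.05. DESeq2 and limma-voom also called 0 members between the gates at days 14 and 28. Myl9 at day 28 held 13.9 to 20.2 CPM in the positive and 25.0 to 43.3 CPM in the negative libraries, and its difference of -0.99 ± 0.30 did not pass (adjusted p = 0.137).

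Pericyte markers moved with the gate in undamaged hearts. Over all genes tested, 3.1% were called between the undamaged gates and 0.594% between those of day 28. Of 10 tested, 4 were lower in the positive gate (Notch3, Abcc9, Ndufa4l2 and Vtn) and 0 higher, and their summed level was 337 to 544 CPM in the 5 positive and 669 to 1199 CPM in the 4 negative libraries. At day 28, 1 of 10 was lower (Notch3), and the sums were 390.0 to 567 CPM in the positive and 569.9 to 854 CPM in the negative libraries. The part of these cells in the differences of Myl9, Cnn1 and Myh11 between the gates was not tested.

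At day 7, the 1 positive and the 1 negative library with a labelled gate allow a description without a test. 9 of the 10 members, all but Myh11, were lower in the positive library, with a median log2 ratio of -0.58 after adding 0.5 CPM, beside -0.0017 for all genes tested. Palld held 150 and 364 CPM in the positive and negative library, a log2 ratio of -1.28 with a 95% counting interval of -1.35 to -1.21. Acta2 held 137 and 201 CPM (-0.56, -0.64 to -0.47), and Tagln 97.9 and 204 CPM (-1.06, -1.16 to -0.97). Myh11 held 7.69 and 1.96 CPM, a ratio of 1.74 (1.35 to 2.65). These intervals cover counting error only and compare 2 libraries. They were computed from the counts without the 0.5 CPM that the ratios include, so at low levels, as for Myh11, they are not centred on the printed ratio. The 4 libraries without a labelled gate were not assigned one. Ly6a was at 296 CPM in 1A, 35.9 in 1B, 334 in 4A and 31.7 in 4B, beside 298 and 31.3 CPM in the labelled positive and negative library. Myh11 in the same 4 libraries was at 3.70, 3.39, 3.49 and 7.91 CPM, beside 7.69 and 1.96 CPM in the labelled pair. In the same order, Palld was at 283, 498, 215 and 383 CPM, Acta2 at 266, 456, 101 and 150 CPM, and Tagln at 245, 447, 73.3 and 176 CPM.

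**Figure D4:**
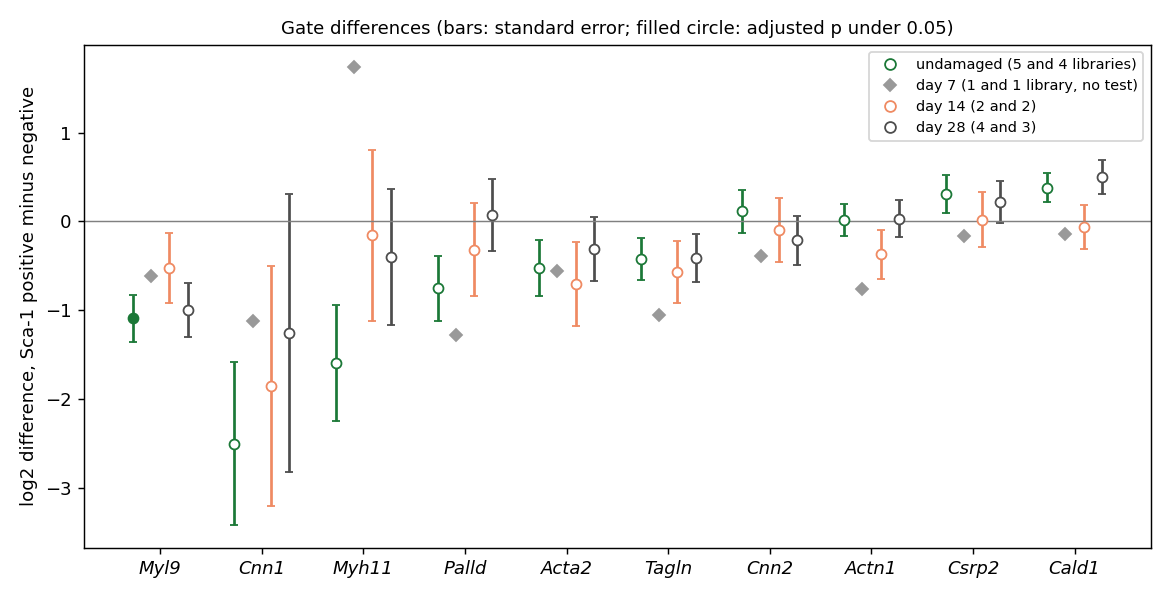
Log2 difference, Sca-1 positive minus negative (vertical axis), of each member in undamaged hearts and at days 14 and 28 with standard errors, and the ratio of the single day 7 libraries as diamonds with no test; filled circles have an adjusted p under 0.05. Only the undamaged value of Myl9, at -1.09, is filled, and the day 7 diamond of Myh11, at 1.74, stands apart from those of the other members.

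Palld and Actn1, picked as the lasting members, were called in both gates. In the positive gate at day 28, 2 of 10 members were higher than in undamaged hearts (1.27% of genes called), Palld by 2.83 ± 0.37 (adjusted p = 0.000472) and Actn1 by 1.07 ± 0.18 (adjusted p = 0.00438). In the negative gate it was the same 2 (1.06% of genes called), Palld by 2.002 ± 0.41 (adjusted p = 0.0183) and Actn1 by 1.06 ± 0.21 (adjusted p = 0.0149). Acta2 differed by 0.41 ± 0.32 (Sca-1 positive) and 0.18 ± 0.36 (Sca-1 negative; adjusted p = 0.632 and 0.880). The change of the gate difference from undamaged hearts to day 28, tested as an interaction, was called for 0 of 10 members and 0 of all genes (0%; 0 members and 719 genes at an unadjusted p under 0.05), and for Palld it was 0.82 ± 0.55 (adjusted p = 0.907). The calls in the negative gate rest on few libraries. That of Palld was lost without E5, F3 or B7 of the undamaged or E4 or B6 of the day 28 libraries (1.71 to 2.002, adjusted p = 0.0602 to 0.0928), that of Actn1 without E4 (0.87, adjusted p = 0.0894), and both within the prefixed libraries (1.20 and 0.86, adjusted p = 0.178 and 0.109). In the positive gate the prefixed libraries alone lost the call of Actn1 (1.18, adjusted p = 0.0762).

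The median day 7 difference was 0.29 log2 for 20 contractile partners and 0.17 for 10 stress fibre and adhesion anchors, beside -0.04 for all genes tested. Of 20 contractile partners (further myosins, tropomyosins and regulators), 6 were higher and 3 lower at day 7, beside 11.5% of all genes higher and 22.8% called. Non-muscle myosin heavy chain Myh9 was higher by 1.09 ± 0.17 (adjusted p = 2.41e-05), and the tropomyosins Tpm2 by 1.22 ± 0.20 (adjusted p = 7.03e-05) and Tpm1 by 0.65 ± 0.11 (adjusted p = 0.000128). The calponin Cnn3 was higher by 0.70 ± 0.12 (adjusted p = 9.24e-05). The 3 lower partners, named after their values were seen, were Lmod1, a leiomodin of smooth muscle (-1.91 ± 0.53, adjusted p = 0.00997), Ppp1r14a, an inhibitor of myosin phosphatase (-1.27 ± 0.36, adjusted p = 0.0127), and Synpo2 (-0.52 ± 0.15, adjusted p = 0.0157). At day 14, 7 partners were higher and 0 lower, beside 5.84% of all genes higher and 8.98% called. At day 28, 0 partners were higher and 2 lower, Myl6 (-0.62 ± 0.18, adjusted p = 0.0410) and Lmod1 (-1.63 ± 0.49, adjusted p = 0.0498). Of all genes, 3.45% were higher and 1.94% lower at day 28. The day 28 difference of Myh9 was -0.01 (adjusted p = 0.986). The partners named as higher at day 7 were picked by smallest p there, and none of them was called at day 28.

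Of the 4 other actin isoforms, cytoplasmic Actb (-0.46 ± 0.16, adjusted p = 0.0366) and Actg1 (-0.67 ± 0.23, adjusted p = 0.0399) were lower at day 7, against the direction of Acta2. Of 10 stress fibre and adhesion anchors, 3 were higher at day 7, among them vinculin (Vcl, 0.89 ± 0.15, adjusted p = 6.52e-05) and Lpp (0.54 ± 0.16, adjusted p = 0.0147), and 0 were higher at day 28. Over all genes tested, 22.8% were called at day 7 (11.5% higher) and 5.39% at day 28 (3.45% higher). The groups of regulators that follow were made after their values were seen. Of 7 TGF-beta ligands, receptors and Smads, 1 was higher and 0 lower at day 7, and 2 were higher at day 28. The ligand gene Tgfb3 was higher by 1.87 ± 0.18 (adjusted p = 2.27e-08) at day 7 and by 1.26 ± 0.17 (adjusted p = 3.42e-05) at day 28. Of Tead1 and its coactivators Yap1 and Wwtr1, 2 of 3 were higher at day 7 and 1 at day 28. Tead1, the gene of a factor that binds the MCAT box, was higher by 0.90 ± 0.12 at day 7 (adjusted p = 2.79e-06) and differed by 0.11 at day 28 (adjusted p = 0.671). Of Srf and the myocardin family, 0 of 3 tested were called at days 7 and 28. Srf itself differed by -0.12 at day 7 (adjusted p = 0.634), and Myocd did not pass the filter on low counts.

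Markers of other cells were read beside these changes. Over all genes tested, 22.8% were called at day 7, 8.98% at day 14 and 5.39% at day 28. At day 7, 7 of 7 endothelial markers were lower, 4 of 4 epicardial and 3 of 6 tested leukocyte markers were higher, and 1 of 9 tested pericyte markers was higher (Cspg4) and 1 lower (Abcc9). At day 28, 6 of 7 endothelial markers were lower and 3 of 4 epicardial markers higher. Pecam1, the gene of CD31, was at 22.9 to 55.3 CPM in undamaged hearts and at 3.47 to 11.2 CPM at day 7, so endothelial transcripts were present despite the gate. Of 7 cardiac fibroblast markers, 5 were lower and 1 higher (Col1a1) at day 7, and 0 were lower and 2 higher (Col1a1 and Lum) at day 28. Gsn averaged 44905 ± 6431 CPM (SD, n = 9) in undamaged hearts and 15913 ± 4977 CPM (n = 6) at day 7, and Dcn 18519 ± 2050.5 and 9250.4 ± 1435 CPM. The summed pericyte level was 337 to 1199 CPM in undamaged hearts, 529 to 759 at day 7 and 390.0 to 854 at day 28, overlapping throughout. Pdgfrb alone averaged 369 ± 105 CPM (SD, n = 9) in undamaged hearts and 413 ± 49.7 CPM (n = 6) at day 7. At the same times Abcc9 averaged 99.6 ± 66.7 and 28.9 ± 17.9 CPM, and Cspg4 7.31 ± 6.27 and 33.9 ± 20.2 CPM. Of the 9 tested, 3 had a day 7 difference above 0. The sum thus gives no measure of how many pericytes were present. The 7 leukocyte markers summed to 6.32 to 28.8 CPM in undamaged hearts, 22.4 to 48.2 at day 7 and 6.80 to 25.1 at day 28. The 4 epicardial markers summed to 0 to 5.59, 5.66 to 69.0 and 9.17 to 91.8 CPM. The pericyte marker Higd1b was at 0 in 1 of 9 undamaged and 2 of 6 day 7 libraries, and the Schwann cell gene Sox10 in 9 of 9 undamaged ones. The part of these cells in the members' changes was not tested. The 5 activated fibroblast markers had 4 higher and 0 lower members at day 7, and again at days 14 and 28.

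Over all 26 libraries and 8852 genes with a mean of at least 3 log2 CPM, the gene whose course was nearest to Acta2 was Tagln, with a root mean square distance of 0.39 log2 after centring each gene. Kalrn (0.46), Specc1 (0.46), and the collagens Col1a2 (0.48) and Col5a1 (0.49) followed. The nearest genes to Palld were Cdh2, the gene of N-cadherin (0.66), Adam12 (0.69), Ncam1 (0.69), Col12a1 (0.75) and Capn6 (0.76). Among the members, Actn1 was the nearest to Palld, at 1.08, and Acta2 was nearer to Actn1 (0.50) than to Csrp2 (0.70), Cnn2 (0.79) or Palld (1.19). The nearest genes to Myh11 were more distant, from Podxl at 0.89 to Aqp1 at 0.99. These distances describe libraries that share gates, times and replicate codes.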

How the data were processed

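RNA of sorted cells was made into stranded mRNA libraries and sequenced as paired ends on a NextSeq 500, per the labels' protocols. The authors deposited raw counts of reads per gene, and 2 entries that name no gene were left out of library sizes: reads outside genes (5.53% to 18.7%, but 55.8% in the day 28 positive library E2) and reads shared by genes (0.128% to 0.646%). The submitters' processing notes name mm10 and, without versions, STAR, TopHat, Bowtie2, Cufflinks and bcl2fastq. The counting program and its strand setting are not given in the sources used here. Gene positions are from GENCODE M21 (GRCm38).

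Counts were fitted with edgeR 4.0.16 in R 4.3.3 (TMM, group-based low-count filter, quasi-likelihood tests, two-sided, adjusted over all genes): 26 libraries by time, and 20 libraries by time and gate without day 7. The code was tested on simulated data. RLE factors, DESeq2 1.42.0, limma-voom (limma 3.58.1), no filter, fewer libraries and blocks were alternatives. Depth was 6.79 to 48.8 M (mega) counts; intervals cover counting error only. In 7 pairs of libraries, both gates of 1 time carry the same replicate code, and their deviations from group means correlated at 0.187 to 0.412. The 2 pairs of day 14 gave the same value, because each gate holds 2 libraries there. The main fits did not use this pairing, and the codes entered as blocks in alternative fits only. The members, lists and contrasts were chosen with earlier results of these data known. All 10 members were named, with up to 4 genes of other lists by smallest p, and the 5 nearest genes to Acta2, Palld and Myh11. Regulators were counted by role, in groups made after their values were seen, and 1 such group is not reported here.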

Additional observations from a re-analysis of the deposited data

Results flagged for a closer look

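A total of 2 values were flagged by the gap to the next value as a share of their group's range. In the Sca-1 positive libraries of undamaged hearts, Myl9 was at 8.64 CPM in library E1, while the other 4 held 20.6 to 24.5 CPM. In the Sca-1 positive day 28 libraries, Cnn1 was at 0.143 CPM in library F2, which is 2 counts, while the other 3 held 0 counts. Beside 3 values of 0, any value above 0 is flagged by this rule, and 2 counts are fewer than the 3 taken as the floor. Among the 50 groups of 4 to 6 libraries tested in this way, chance flags about 1 in 20. The day 7 and day 14 groups were not split by gate.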

How the results depend on the processing

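Of 33 member differences called in at least 1 fit, 765 refits under the alternatives gave 723 with the same direction and side of the threshold, 30 that lost and 11 that gained a call, and 1 of the other sign: Csrp2 between the gates of undamaged hearts, 0.31 with all libraries, was -0.021 within the prefixed libraries. With each library left out in turn, the number of members called ranged from 5 to 7 at day 7, 3 to 5 at day 14 and 4 to 4 at day 28 against undamaged hearts. It ranged from 6 to 7 for day 28 and 0 to 1 for day 14 against day 7. Between the gates of undamaged hearts it was 0 to 1, and for day 28 against undamaged hearts 2 to 2 in the positive and 0 to 2 in the negative gate. DESeq2 called 1 member between days 14 and 7. Within the prefixed libraries 0 members were called between the gates of undamaged hearts, 1 at day 28 in the positive gate and 1 (Cnn1, lower) in the negative gate, and 0 between the undamaged gates also when the 3 undamaged libraries that detect the fewest genes (A6 and B7 negative, B7 positive) were left out. In the letter-coded libraries the 1 call between these gates was Csrp2 and not Myl9. The share of the day 7 difference left at day 28 was 0.45 for Palld within the prefixed libraries and -1.24 for Cnn2 with gate as a term in 22 libraries. For the comparisons of times, the replicate code entered as a block in limma-voom. Members called were then 6, 5 and 3 at days 7, 14 and 28 against undamaged hearts. For day 28 against day 7 there were 7. Between the undamaged gates the code was a fixed block in edgeR, and 1 member was called. Only the codes with both gates (F3, A6 and B7) bear on that difference. The causes of these changes were not tested. Numbers before the codes differ between times and cannot be told apart from them. Xist exceeded 20 CPM in 6 of the 10 libraries of days 7 and 14 and in 0 of the others. Leaving out those 6 libraries kept only 1A and 1B at day 7 and only the D1 pair at day 14. The counts of members called were then 6, 5 and 4 at days 7, 14 and 28 against undamaged hearts. At the depths here, 3 counts reach 0.442 CPM in the shallowest library, which limits Cnn1.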
